A study of Mus musculus with 9 samples.

Results

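The 9 genes analysed here belong to the YAP/TAZ transcriptional module and were followed in RNA-sequencing counts of sorted mouse mammary cells. They are the coactivator genes Yap1 (YAP) and Wwtr1 (TAZ), the DNA-binding factor genes Tead1, Tead2, Tead3 and Tead4, and the cofactor genes Vgll1, Vgll3 and Vgll4. The members were chosen by name, and all 9 were found among the 55450 genes of the count table and passed the filter on low counts that left 19357 genes for testing, Vgll1 and Vgll3 through the deletion groups alone. Adult nulliparous mice of 3 genotypes gave 3 libraries each of EYFP+ cells isolated by FACS, 7 days after the last of 5 daily doses of 2 mg of tamoxifen. All carried the Cre-activated EYFP reporter lsl-EYFP and K8CreERT2, a tamoxifen-inducible Cre under the promoter of keratin 8, so that EYFP marks luminal cells in which Cre was active and their progeny. The control genotype held nothing more, the LATS1/2-KO genotype added the floxed alleles LATS1/2f/f of Lats1 and Lats2, and the LATS1/2-Sox9-KO genotype added to these the floxed alleles Sox9f/f of Sox9. Control mice thus also received tamoxifen and carried the Cre, but no floxed target. Nothing in the labels states that the libraries of a group came from separate mice, so p-values measure the spread between these libraries. Total counts ranged from 44167762 to 61967651 per library.

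YAP and TAZ are paralogous coactivators that do not bind DNA themselves and reach their target genes mainly through TEAD factors. The kinases LATS1 and LATS2 phosphorylate YAP and TAZ, which holds them in the cytoplasm and marks them for degradation. The vestigial-like (VGLL) proteins bind the same TEAD factors, VGLL4 as a known antagonist of YAP. RNA counts measure the transcripts of these genes and say nothing of phosphorylation, localization or protein amount.

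The targeted genes were checked first. Lats1 stood at 5672, 5929 and 5940 normalized counts in the control libraries, at 2090, 1923 and 2336 in those labelled LATS1/2-KO and at 2058, 1844 and 1709 in those labelled LATS1/2-Sox9-KO. Normalized counts here are raw counts divided by TMM-corrected library sizes, brought to 1 common size. Lats1 was lower in both deletion groups, with a log2 fold change of -1.47 ± 0.11 (SE) for LATS1/2-KO against control (adjusted p = 7.07e-06, edgeR quasi-likelihood test with Benjamini-Hochberg adjustment, n = 3 libraries per group). Lats2 went the other way, at 1039, 865 and 1220 normalized counts in control, 1256, 1434 and 1723 in the libraries labelled LATS1/2-KO and 1957, 1580 and 1240 in those labelled LATS1/2-Sox9-KO. Its log2 fold change for LATS1/2-KO against control was 0.50 ± 0.20 (adjusted p = 0.0571). Sox9 stood at 23313, 19948 and 21534 normalized counts in control, at 7205, 9506 and 12433 in the libraries labelled LATS1/2-KO and at 8812, 6756 and 6460 in those labelled LATS1/2-Sox9-KO, and the last 2 groups overlapped (adjusted p = 0.25). Sox9 was already lower in LATS1/2-KO, where it is not floxed, than in control (log2 fold change -1.15 ± 0.19, edgeR adjusted p = 0.000682). Gene-level counts of Lats2 and Sox9 therefore do not check the labels. A transcript can lack its floxed exons and still be counted, but exon-level reads were not analysed here, so this was not tested. The groups are named by their labels throughout.

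The luminal label was checked against 10 luminal markers, which summed to between 17575 and 26680 CPM (counts per 1000000 counts of the library) in every library, with Krt18 the most abundant. Of these, Krt8 and Krt18 rose in LATS1/2-KO against control and 6 fell, among them the hormone receptor genes Pgr (log2 fold change -5.91), Prlr (-4.81) and Esr1 (-3.50), so that the sum rests on the keratins. Markers of other cell types summed lower. The 8 basal markers, of which 4 rose and 2 fell in LATS1/2-KO against control, summed to 82.8 to 106 CPM in control, to 2991 to 5311 in the libraries labelled LATS1/2-KO and to 2754 to 7117 in those labelled LATS1/2-Sox9-KO. Krt14 was the most abundant of them in the deletion groups, at 9.46 to 16.7 CPM in control, at 2668 to 4994 in LATS1/2-KO and at 2035 to 6431 in LATS1/2-Sox9-KO, while the basal factor Trp63 was at 6.85 to 40.6 in control and at 0.777 to 1.39 in LATS1/2-KO. The 4 adipocyte markers, of which 3 were called higher in LATS1/2-KO against control, summed to at most 0.235 CPM in control, to 0.139, 8.23 and 15.7 in the LATS1/2-KO libraries from lowest to highest and to 0.565, 2.91 and 3.84 in the LATS1/2-Sox9-KO libraries, with Cidec the most abundant over all libraries. Of the genes called, Adipoq and Cidec had at most 3 and 1 raw counts in control, and Lep had 0. Such genes could be called only where they were higher after deletion, and Adipoq and Cidec overlapped with control. The sums of the 7 fibroblast markers overlapped, from 44.7 to 174 CPM in control and from 49.7 to 200 in LATS1/2-KO, although 4 of them rose and Dcn, the most abundant in control, fell (edgeR adjusted p = 0.0429). The 7 immune markers summed to 11.8 to 13.5 in control and to 38.7 to 68.3 in LATS1/2-KO, a rise that lay in Csf1r, while the pan-leukocyte gene Ptprc was at 0.209 to 3.29 and Cd3e was at 0 in every library. The 6 endothelial markers summed to at most 14.6 CPM in any library, and the pericyte and red cell lists to at most 3.89 and 2.74. The 3 Schwann cell markers, led by Sox10, reached 72.5 in control and 50.7 in LATS1/2-KO. In a bulk library, fewer cells of a type and less RNA per cell cannot be told apart, and the part of these marker genes in the results below was not tested except where a value is given.

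In the libraries labelled LATS1/2-KO, 8 of the 9 genes differed from control. Wwtr1, Tead1, Tead4, Vgll1 and Vgll3 rose, Yap1, Tead2 and Tead3 fell, and Vgll4 did not pass the test. Over all genes tested, 28.7% were called higher and 27.1% lower at an adjusted p of at most 0.05, so that a call on its own was common. With more than 2-fold, 6 of the 9 genes passed, against 34.6% of all genes, and the median absolute log2 fold change over all genes was 0.81. The minimum of the filter was reached in 0 of 3 control libraries for Vgll1 and in 1 of 3 for Vgll3, so a member of this kind could be tested only where it was higher after deletion. Of the other 7 genes, 3 rose and 3 fell, 4 of them by more than 2-fold. Tead3, among these 4, was under 2-fold in its weakest alternative (log2 fold change -0.88). The changes ran in opposite directions within each of the coactivator and TEAD families. For the coactivators this rests on the rise of Wwtr1, which was at 0.08 (edgeR adjusted p = 0.674) in its weakest alternative.

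**Figure D1:**
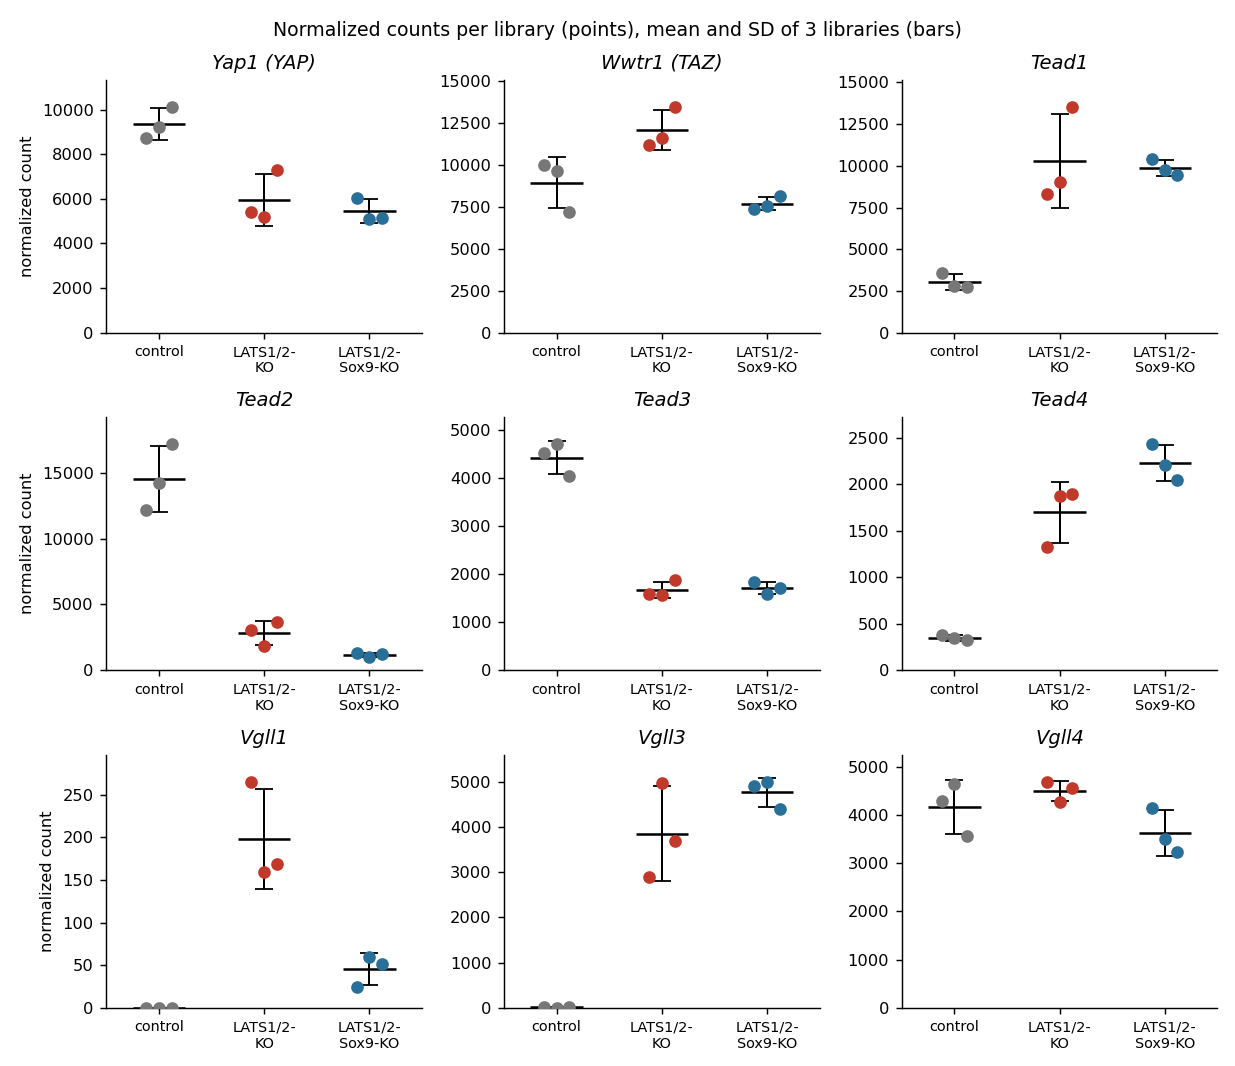
Normalized counts (vertical axes, linear and starting at 0) of the 9 genes in each library of control, LATS1/2-KO and LATS1/2-Sox9-KO (horizontal axes). Points are libraries, and black bars are the mean and SD of 3 libraries. Tead2 and Tead3 dropped from control where Tead1 and Tead4 rose, and Vgll1 and Vgll3 were at or near 0 in control alone.

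Yap1, a single gene on the reverse strand of chromosome 9 (ENSMUSG00000053110, chr9:7931999-8004596, GRCm38), had 8734, 9208 and 10127 normalized counts in control, 5391, 5169 and 7280 in LATS1/2-KO and 6059, 5116 and 5138 in LATS1/2-Sox9-KO. All 6 libraries labelled as deleted lay below all 3 control libraries, and the 2 deletion groups overlapped. The difference from control was 1.57-fold for LATS1/2-KO (log2 fold change -0.65 ± 0.14, edgeR adjusted p = 0.00339) and 1.72-fold for LATS1/2-Sox9-KO (-0.78 ± 0.14, adjusted p = 0.00107). An opposite gene, Gm20416, overlaps 1.25% of the exon bases of Yap1. The study's methods name the same strand as a condition for counting, and whether reads of opposite genes were told apart was not checked here.

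Wwtr1, which encodes TAZ (ENSMUSG00000027803, chr3:57455649-57575910, reverse strand), had 10000, 9604 and 7176 normalized counts in control, 11163, 11603 and 13435 in LATS1/2-KO and 7380, 7509 and 8144 in LATS1/2-Sox9-KO. It was highest in the libraries labelled LATS1/2-KO, without overlap with either other group, while control and LATS1/2-Sox9-KO overlapped. Its log2 fold change for LATS1/2-KO against control was 0.43 ± 0.14 (edgeR adjusted p = 0.0211). This rise was the least stable of the 8 calls. It was 0.08 (adjusted p = 0.674) with an adjustment of the counts for gene GC content, 0.29 (0.0639) without control replicate 3 and 0.36 (0.0734) without LATS1/2-KO replicate 3.

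The windows before the start sites of Yap1 and Wwtr1 are shown because these genes encode the TEAD-bound coactivators and each window holds a match to the core TEAD motif. Each line gives 250 bases upstream of a RefSeq start site, wholly outside the annotated gene, 5′ to 3′ on the strand of the gene in GRCm38.p6, with the letters GGAATG, or CATTCC where the match is on the opposite strand, in capitals. The Yap1 window is chr9:8004597-8004846 (reverse strand) and the Wwtr1 window is chr3:57575911-57576160 (reverse strand).
Yap1: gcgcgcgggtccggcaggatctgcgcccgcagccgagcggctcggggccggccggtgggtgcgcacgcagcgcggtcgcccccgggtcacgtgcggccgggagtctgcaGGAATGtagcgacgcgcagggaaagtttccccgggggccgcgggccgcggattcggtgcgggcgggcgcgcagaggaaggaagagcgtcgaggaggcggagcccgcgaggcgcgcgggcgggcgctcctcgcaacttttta
Wwtr1: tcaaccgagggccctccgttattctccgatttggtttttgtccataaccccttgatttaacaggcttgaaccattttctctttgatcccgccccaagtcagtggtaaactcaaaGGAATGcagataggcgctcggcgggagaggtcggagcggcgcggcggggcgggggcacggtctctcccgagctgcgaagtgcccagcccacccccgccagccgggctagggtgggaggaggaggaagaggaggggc
The match begins 141 bases before the start site in Yap1 and 136 bases before it in this window of Wwtr1. Of the 9 genes, 7 have windows in the RefSeq table, which run from 250 bases before to 50 after a start site, and 6 of these hold GGAATG on either strand in at least 1 window: Yap1, Wwtr1, Tead3, Vgll1, Vgll3 and Vgll4. The window of Tead2 holds none. By window, 8 of the 10 hold it, among them the overlapping windows of Wwtr1 that share a match, and over all 32851 windows of this length 14.7% do. None of the 10 windows of these genes holds TGACTCA or TGAGTCA, the AP-1 motif in both orientations, which 5.2% of all windows hold. A match of letters is a description of the sequence and not a site shown to be bound.

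Per length of exon, Wwtr1 transcripts were more abundant than Yap1 transcripts in every library when the union of exons was taken as length. The ratio of Wwtr1 to Yap1 in normalized counts per kilobase was 1.87 ± 0.442 (SD, n = 3) in control, 3.98 ± 0.388 in LATS1/2-KO and 2.76 ± 0.363 in LATS1/2-Sox9-KO, with no overlap between the groups. The level of the ratio depends on the length given to each gene, and with the longest transcript in place of the union of exons it was 1.09, 2.31 and 1.6, and in the control libraries it ran from 0.797 to 1.29, so that Yap1 was above Wwtr1 in at least 1 of them. The summed level of both genes was 2879 ± 246 normalized counts per kilobase in control, 3167 ± 374 in LATS1/2-KO and 2194 ± 67.7 in LATS1/2-Sox9-KO. Control and LATS1/2-KO overlapped in this sum, and the libraries labelled LATS1/2-Sox9-KO lay below both.

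The 4 TEAD genes split into pairs. TEAD factors share a DNA-binding domain and a domain that binds YAP, TAZ and VGLL proteins. Tead2 and Tead3 fell and Tead1 and Tead4 rose, each by more than 2-fold and with no overlap between control and either deletion group. How many of all genes lay without overlap is not given here. In its weakest alternatives Tead3 came under 2-fold, at log2 fold changes against control of -0.88 in LATS1/2-KO and -0.94 in LATS1/2-Sox9-KO.

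Tead2 (ENSMUSG00000030796, chr7:45215753-45233644, forward strand) was the most abundant TEAD transcript in control, at 12165, 14193 and 17155 normalized counts, and fell to 3016, 1871 and 3626 in LATS1/2-KO and to 1293, 996 and 1202 in LATS1/2-Sox9-KO. The 3 groups did not overlap. The fall from control was 5.11-fold in LATS1/2-KO (log2 fold change -2.35 ± 0.24, edgeR adjusted p = 2.83e-05) and 12.5-fold in LATS1/2-Sox9-KO (-3.64 ± 0.25, adjusted p = 2.59e-06). An opposite gene, Cd37, overlaps 0.272% of the exon bases of Tead2.

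Tead3 (ENSMUSG00000002249, chr17:28331671-28350817, reverse strand) had 4532, 4709 and 4057 normalized counts in control, 1585, 1572 and 1872 in LATS1/2-KO and 1830, 1592 and 1708 in LATS1/2-Sox9-KO. The deletion groups lay on top of each other, well below control. Its log2 fold change for LATS1/2-KO against control was -1.40 ± 0.12 (edgeR adjusted p = 1.07e-05), a 2.64-fold fall.

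Tead1 (ENSMUSG00000055320, chr7:112679318-112906807, forward strand) had 3568, 2783 and 2706 normalized counts in control, 8287, 9045 and 13537 in LATS1/2-KO and 10405, 9776 and 9452 in LATS1/2-Sox9-KO. It rose 3.41-fold in LATS1/2-KO (log2 fold change 1.77 ± 0.19, edgeR adjusted p = 4.07e-05), and LATS1/2-KO replicate 3 stood highest of all libraries. Tead4 (ENSMUSG00000030353, chr6:128224288-128300823, reverse strand) was the least counted TEAD gene in control, at 384, 341 and 321 normalized counts, and had 1322, 1878 and 1902 in LATS1/2-KO and 2431, 2205 and 2046 in LATS1/2-Sox9-KO. It rose 4.87-fold in LATS1/2-KO (log2 fold change 2.29 ± 0.17, adjusted p = 5.52e-06).

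Together these opposite changes altered the make-up of the TEAD transcripts. Per kilobase of exon, Tead2 made up 75.2% ± 4.61 (SD, n = 3) of the summed TEAD level in control, 28.4% ± 6.38 in LATS1/2-KO and 13.2% ± 1.3 in LATS1/2-Sox9-KO. Tead1 went from 5.65% ± 1.5 in control to 36.3% ± 2.94 in LATS1/2-KO, and Tead4 from 2.45% ± 0.494 to 23.1% ± 4.92. The mean share of Tead1 was then above that of Tead2, but the shares overlapped between libraries. In LATS1/2-KO replicate 1, Tead2 was at 34.2% and Tead1 at 33.1%. The share of Tead3 was 16.7% ± 2.8 in control and 12.2% ± 1.14 in LATS1/2-KO, without overlap (with overlap when the longest transcript was the length), and 13.8% ± 0.521 in LATS1/2-Sox9-KO, where it overlapped control. The summed TEAD level itself was 4009 ± 447 normalized counts per kilobase in control and 2073 ± 424 in LATS1/2-KO, without overlap. The share of Tead2 and the summed level are not independent, because Tead2 carried most of the level in control.

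**Figure D2:**
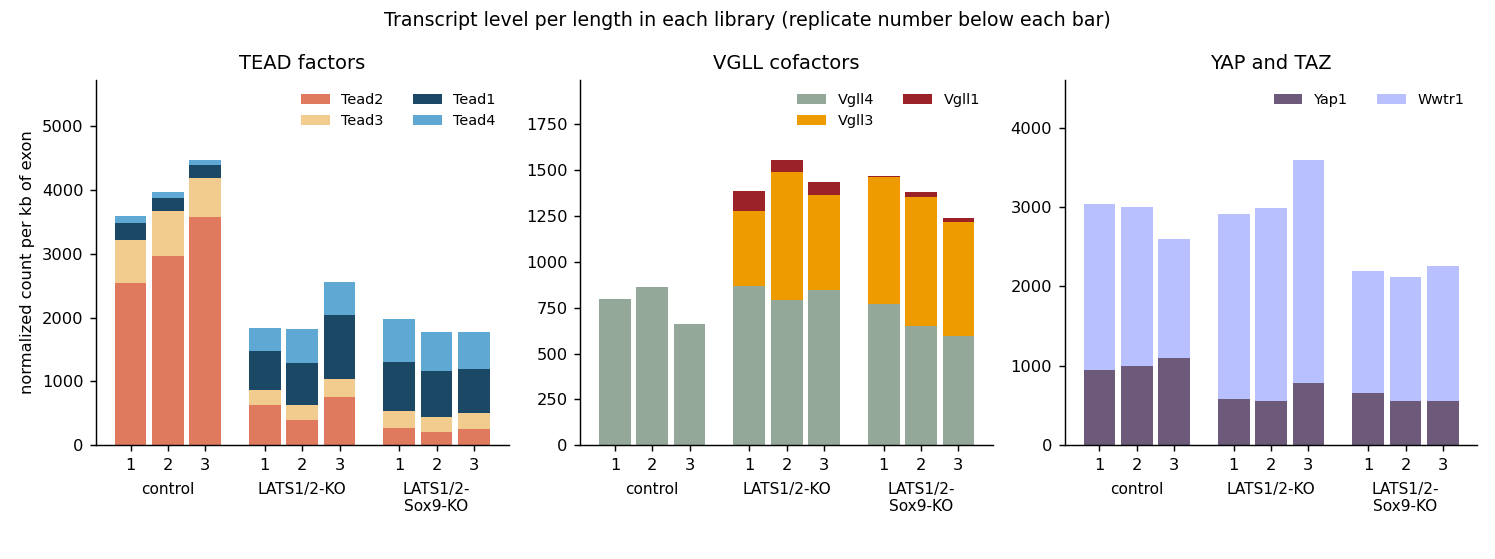
Normalized counts per kilobase of exon (vertical axes, linear and starting at 0), stacked by gene, in each of the 9 libraries (bars, with replicate numbers below). In control the TEAD level was mostly Tead2 and the VGLL level almost wholly Vgll4, whereas in the libraries labelled LATS1/2-KO Tead1 averaged 36.3% of the TEAD level and Vgll3 36.9% of the VGLL level, a share of 20.4% with the longest transcript as length.

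Vgll1 and Vgll3 were the 2 members that were absent or nearly so in control. Vgll1 (ENSMUSG00000031131, chrX:57088106-57106540, forward strand) had 0 counts in all 3 control libraries, 265, 159 and 169 normalized counts in LATS1/2-KO and 24.1, 59.8 and 51.9 in LATS1/2-Sox9-KO. Against a floor of 3 counts in each control library (3.54 normalized counts on average), it was at least 55.8-fold higher in LATS1/2-KO and at least 12.8-fold higher in LATS1/2-Sox9-KO, and no p is given against control because the gene entered the test through the deletion groups alone. Vgll3 (ENSMUSG00000091243, chr16:65815257-65866368, forward strand) had 10.4, 3.4 and 8.71 normalized counts in control, from 3 to 9 raw counts. It rose to 2893, 4973 and 3696 in LATS1/2-KO and to 4913, 4996 and 4406 in LATS1/2-Sox9-KO, the widest step from control among the members apart from the bound on Vgll1. Its log2 fold change for LATS1/2-KO against control was 8.99 ± 0.33, a size that rests on few control counts and is given as a description, since this gene too passed the filter through the deletion groups. Vgll2, the remaining family member and not among the 9 genes, had 0 counts in every library.

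The upstream windows of these genes are shown because their transcripts appeared together in the deletion groups and both windows hold the TEAD letters. Capitals, source and build are as for Yap1 and Wwtr1. The Vgll1 window is chrX:57087856-57088105 (forward strand) and the Vgll3 window is chr16:65814939-65815188 (forward strand).
Vgll1: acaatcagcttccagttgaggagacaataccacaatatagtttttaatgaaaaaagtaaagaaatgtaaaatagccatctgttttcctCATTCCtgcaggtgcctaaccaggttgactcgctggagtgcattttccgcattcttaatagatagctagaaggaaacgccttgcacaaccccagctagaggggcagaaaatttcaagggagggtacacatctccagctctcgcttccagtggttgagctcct
Vgll3: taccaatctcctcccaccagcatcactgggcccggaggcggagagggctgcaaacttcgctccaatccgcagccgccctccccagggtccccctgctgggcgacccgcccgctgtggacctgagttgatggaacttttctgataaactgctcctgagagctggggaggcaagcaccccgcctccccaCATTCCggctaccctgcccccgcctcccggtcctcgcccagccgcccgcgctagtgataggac
In both windows the letters read CATTCC on the strand of the gene, beginning 162 bases before the start site in Vgll1 and 63 bases before it in Vgll3. The motif also stands upstream of Yap1, whose transcript fell, there as GGAATG on the strand of the gene, and in 2 of the 3 windows of Tead3, which fell as well. The windows differ in base composition, with 44% G and C in the 250 bases of Vgll1 and 66.8% in those of Vgll3.

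Vgll4 (ENSMUSG00000030315, chr6:114860628-114969994, reverse strand) had 4298, 4648 and 3564 normalized counts in control, 4687, 4276 and 4552 in LATS1/2-KO and 4146, 3511 and 3228 in LATS1/2-Sox9-KO. Control overlapped both other groups. Its log2 fold change for LATS1/2-KO against control was 0.11 ± 0.13 (edgeR adjusted p = 0.499), though it was 0.54 (adjusted p = 0.00273) when the counts were adjusted for GC content. Per kilobase of exon, Vgll4 made up 99.9% ± 0.0746 (SD, n = 3) of the VGLL level in control and 57.5% ± 6.06 in LATS1/2-KO, where Vgll3 made up 36.9% ± 7.77 and Vgll1 5.59% ± 1.94. The summed VGLL level was 774 ± 102 normalized counts per kilobase in control and 1458 ± 89.6 in LATS1/2-KO. The ratio of the VGLL to the TEAD level was 0.196 ± 0.0417 in control, 0.723 ± 0.152 in LATS1/2-KO and 0.738 ± 0.0375 in LATS1/2-Sox9-KO, with both deletion groups above control in every library. These shares and the ratio also depend on the lengths. With the longest transcript as length, an alternative added after the data were seen, Vgll4 made up 76.3% and Vgll3 20.4% of the VGLL level in LATS1/2-KO, and the VGLL to TEAD ratio was 0.322 ± 0.0661 in control, 0.948 ± 0.178 in LATS1/2-KO and 0.919 ± 0.0512 in LATS1/2-Sox9-KO, again without overlap with control.

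The order of the 9 transcripts per kilobase of exon changed with these steps, and is given for the union of exons. In control it ran from Tead2 (3029 ± 524 normalized counts per kilobase, SD, n = 3) to Wwtr1 (1868 ± 320), Yap1 (1011 ± 76.5), Vgll4 (773 ± 103), Tead3 (660 ± 50.2), Tead1 (222 ± 35.1), Tead4 (96.9 ± 8.91), Vgll3 (1.06 ± 0.516) and Vgll1, and only Vgll4 and Tead3 overlapped among neighbours. In LATS1/2-KO, Wwtr1 came first at 2525 ± 252 and apart from all others. The 6 genes after it ran from Vgll4 (835 ± 38.8) through Tead1 (758 ± 209), Yap1 (642 ± 125), Tead2 (593 ± 186) and Vgll3 (543 ± 148) to Tead4 (473 ± 91.2). Each overlapped with its neighbour, so the order of neighbours is not firm. Some genes further apart did separate, with Vgll4 (792 to 869) above Yap1 (558 to 786), Tead2, Vgll3 and Tead4 in every library. Tead4 (367 to 529) likewise lay below Tead1 (611 to 998) and Yap1. Tead3 (250 ± 25.3) and Vgll1 (80.5 ± 23.8) lay below all 6. With the longest transcript as length, Tead2 again came first in control, but Wwtr1 (1901 ± 326), Vgll4 (1897 ± 252) and Yap1 (1771 ± 134) overlapped, and in LATS1/2-KO Vgll4 (2050 ± 95.2) stood apart as the second after Wwtr1 (2569 ± 257).

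The comparison of the libraries labelled LATS1/2-Sox9-KO with those labelled LATS1/2-KO asks what the added floxed Sox9 alleles changed. Here 3 of the 9 genes fell (Wwtr1, Tead2 and Vgll1), none rose, and 6 did not pass the test. At an unadjusted p of 0.05, edgeR had 1 gene higher (Tead4) and 4 lower, and DESeq2 with adjustment had 0 higher and 3 lower. Over all genes, 3.33% were called lower and 3.13% higher, and 3.71% passed with more than 2-fold, as Tead2 and Vgll1 did. Of all genes called, 48.4% were higher with TMM factors and 30.4% with library sizes alone. Wwtr1 was 1.57-fold lower (log2 fold change -0.65 ± 0.14, edgeR adjusted p = 0.0251), Tead2 2.44-fold lower (-1.29 ± 0.23, adjusted p = 0.0142) and Vgll1 4.36-fold lower (-2.12 ± 0.43, adjusted p = 0.0307). In each of the 3 genes the groups did not overlap, but neither did they in Tead4 and Vgll4, which did not pass the test. The share of all genes without overlap is not given here. Tead2 passed in 18 of 19 alternatives with log2 fold changes from -1.48 to -1.07, Wwtr1 in 13 of 19 and Vgll1 in 12 of 18. Without LATS1/2-Sox9-KO replicate 2 none of them passed in edgeR, although all 3 did at an unadjusted p of 0.05, at an adjusted p of 0.115 for Wwtr1, 0.069 for Tead2 and 0.084 for Vgll1. Wwtr1 and Vgll1 also missed the threshold without LATS1/2-KO replicate 2 or 3 or LATS1/2-Sox9-KO replicate 1 or 3, with adjusted p between 0.0542 and 0.089, while their log2 fold changes stayed between -0.68 and -0.57 and between -2.34 and -1.79. With the replicate block given at the end, Wwtr1 and Vgll1 missed the threshold too.

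The other 6 genes did not pass this test, and their fitted folds were 1.31 or less. Tead4 (log2 fold change 0.39 ± 0.16, edgeR adjusted p = 0.182) and Vgll4 (-0.31 ± 0.13, adjusted p = 0.192) had groups that did not overlap. Yap1, Tead1, Tead3 and Vgll3 overlapped between these groups, with log2 fold changes of -0.13, -0.06, 0.03 and 0.31. The sign for Tead3 turned with upper-quartile factors (-0.02), library sizes alone (-0.08) and the GC adjustment (-0.06).

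Against control, the libraries labelled LATS1/2-Sox9-KO had Tead1 and Tead4 higher and Yap1, Tead2 and Tead3 lower, beside Vgll1 and Vgll3, where 29.3% of all genes were called higher and 28.7% lower. Among the members, 6 passed with more than 2-fold, or 4 of the 7 without Vgll1 and Vgll3, against 37.4% of all genes. Tead3, among these 4, was under 2-fold in its weakest alternative (log2 fold change -0.94). This comparison shares its control libraries with that of LATS1/2-KO, so the values stand side by side without a measure of likeness. Tead1 had a log2 fold change of 1.71 ± 0.19 here and 1.77 ± 0.19 in LATS1/2-KO. Tead4 had 2.67 ± 0.17 and 2.29 ± 0.17, Tead3 -1.37 ± 0.12 and -1.40 ± 0.12, and Vgll3 9.30 ± 0.33 and 8.99 ± 0.33. Wwtr1 was at -0.22 ± 0.14 (edgeR adjusted p = 0.2), but passed as lower with the GC adjustment (-0.53, adjusted p = 0.0102) and without control replicate 3 (-0.34, adjusted p = 0.0293). Vgll4 was at -0.20 ± 0.13 (adjusted p = 0.215).

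**Figure D3:**
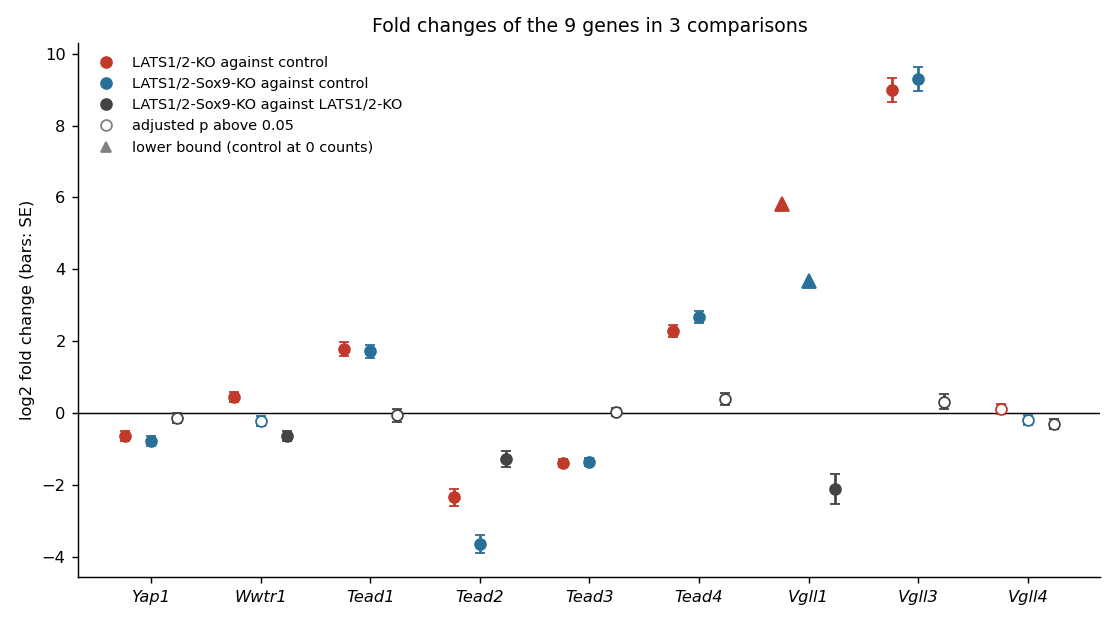
Log2 fold changes (vertical axis, points, with bars for the standard error) of the 9 genes (horizontal axis) in 3 comparisons. Filled points passed an adjusted p of 0.05, open points did not, and triangles are the lower bounds for Vgll1, which had 0 counts in control. The filled Vgll3 points against control are a description, since this gene passed the filter through the deletion groups. Between the deletion groups (dark points), Wwtr1, Tead2 and Vgll1 are the filled ones.

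Of the genes that hold YAP and TAZ outside the nucleus, stabilise them or turn them over, 23 were listed and tested, and 9 rose, 5 fell and 9 did not pass the test in LATS1/2-KO against control, with a median log2 fold change of 0.26 against 0.04 over all genes. Of all genes, 28.7% were called higher and 27.1% lower, so the number of calls in this list was near the background. Amot, which encodes a membrane-associated protein that binds YAP, went from a mean of 1462 to 36417 normalized counts (log2 fold change 4.64 ± 0.16, edgeR adjusted p = 1.17e-07). Ajuba, a LIM protein that inhibits LATS kinases, went from 759 to 7978 (3.39 ± 0.20). Amotl2 rose from 8455 to 31166 (1.88 ± 0.15) and Ptpn14, a phosphatase that binds YAP, from 1639 to 5884 (1.84 ± 0.17). Families within the list were counted after their values were seen. All 3 angiomotin genes rose, with Amotl1 at 1.42. Of the AJUBA family, Ajuba and Wtip (1.56) rose and Limd1 (-0.96) fell. Both genes for the F-box proteins that direct phosphorylated YAP and TAZ to degradation fell, Btrc by 1.84 and Fbxw11 by 1.76 on the log2 scale. Of the 7 14-3-3 genes, whose proteins bind phosphorylated YAP in the cytoplasm, Ywhah (1.65) and Ywhae (0.33) rose, Sfn (-0.98) fell and 4 did not pass the test. With the GC adjustment Ywhae was at -0.02 (edgeR adjusted p = 0.829) and Sfn at -0.41 (0.074).

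Of 23 listed nuclear partners of YAP, TAZ or TEAD, 20 were tested, and 17 fell, 1 rose and 2 did not pass the test in LATS1/2-KO against control, where 27.1% of all genes fell and 28.7% rose. Their median log2 fold change was -1.20, against 0.04 over all genes. Fosb had the largest fall, from a mean of 375690 to 53479 normalized counts (log2 fold change -2.81 ± 0.27, edgeR adjusted p = 2.15e-05). Jun went from 150425 to 35104 (-2.10 ± 0.28) and Jund from 102689 to 24629 (-2.06 ± 0.14). These encode AP-1 subunits, which bind DNA near TEAD factors at many enhancers. All 7 AP-1 genes on the list fell, a count made after the values were seen, although Fosl2 missed the threshold in 2 of 19 alternatives. These 7 are part of the 17 that fell, so the median of the list rests partly on them. The glands were digested with collagenase and dissociated before sorting, and the effect of this handling on the AP-1 counts was not tested. Tcf7l2, a factor of the Wnt pathway, went from 3287 to 753 (-2.13 ± 0.24). The gene that rose was Smad2 (0.30), but it passed in 15 of 19 alternatives and was at -0.01 (edgeR adjusted p = 0.949) with the GC adjustment. Ctbp1 (-0.38) passed in 14 of 19 and was at 0.06 (edgeR adjusted p = 0.622) with that adjustment. Runx2 (-0.80, edgeR adjusted p = 0.0383) had groups that overlapped and passed in 13 of 19, with an adjusted p of up to 0.142, and Srf (-0.79) passed in 18. Ctbp2 (-0.12) and Mrtfa (-0.25) did not pass the test. Vgll2, Runx3 and Trp73 were not tested because of low counts.

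Of 22 listed YAP/TAZ target genes, a list written from general knowledge, 21 were tested, and 14 rose, 5 fell and 2 did not pass the test in LATS1/2-KO against control, where 28.7% of all genes rose and 27.1% fell. Their median log2 fold change was 1.88, against 0.04 over all genes. Ankrd1, the ankyrin repeat gene widely used as a YAP readout, went from a mean of 24.1 to 20134 normalized counts (log2 fold change 9.70 ± 0.35, edgeR adjusted p = 1.48e-07). Ccn2, a secreted matricellular protein gene, went from 1137 to 146270 (7.01 ± 0.42), Fjx1 from 25 to 1060 (5.40 ± 0.26) and Nt5e from 93.3 to 1276 (3.77 ± 0.49). The 5 that fell were Gadd45a (-1.85), F3 (-1.81), Dock5 (-1.74), Arhgef17 (-1.09) and Rbms3 (-1.07). Lats2, itself on the list, and Crim1 did not pass the test. Amotl2 and Ptpn14 stand on this list and on that of retention and turnover.

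**Figure D4:**
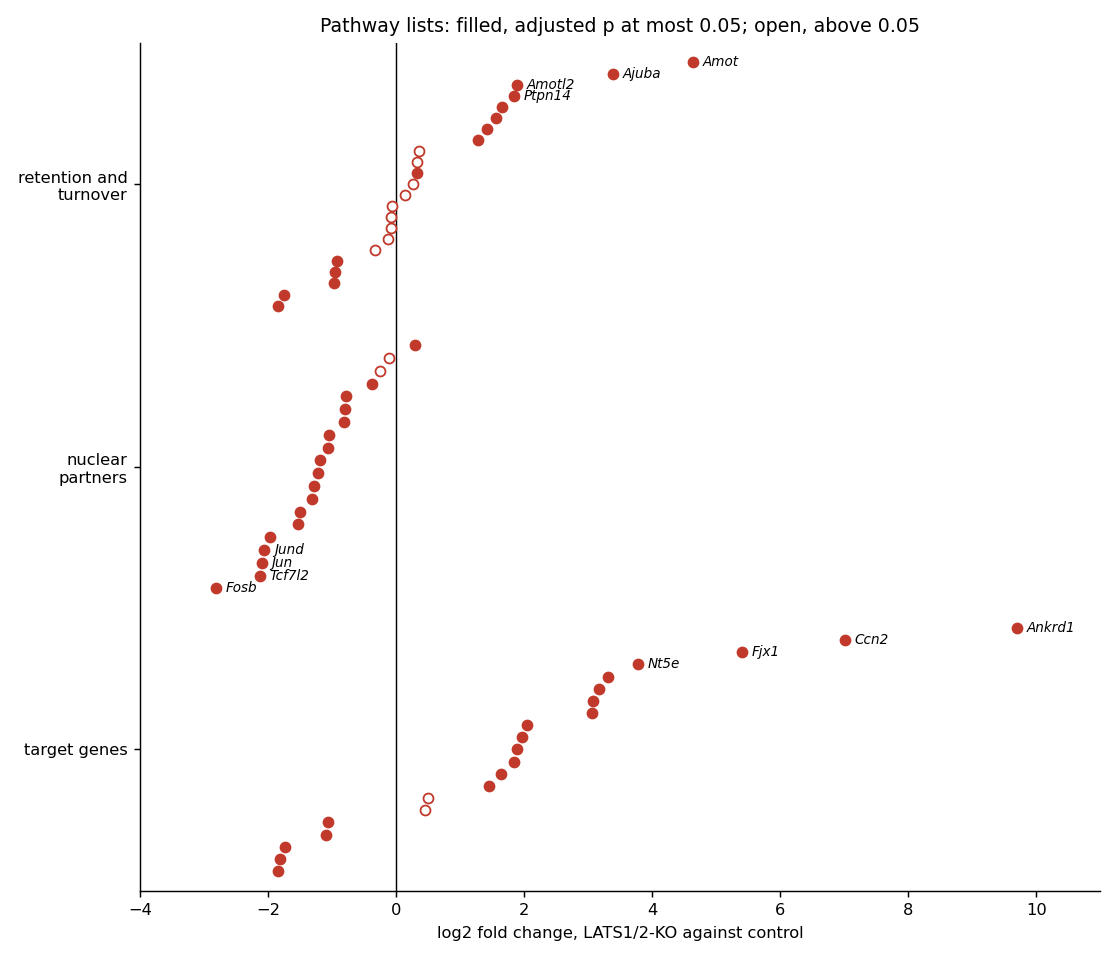
Log2 fold changes of LATS1/2-KO against control (horizontal axis) for each tested gene of the 3 lists (rows), sorted within a list, filled at an adjusted p of at most 0.05 and open above it. Nuclear partners lie mostly to the left of 0 (17 fell and 1 rose), target genes mostly to the right (14 rose and 5 fell), and genes of retention and turnover on both sides (9 rose and 5 fell).

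Between the deletion groups, 2 of the 62 list genes tested were higher and 2 lower, near the 3.13% and 3.33% of all genes. Against LATS1/2-KO, the libraries labelled LATS1/2-Sox9-KO had Ywhag (0.64) higher and Nf2 (-0.92) lower among the genes of retention and turnover, Smad3 (0.89) higher among nuclear partners and Rbms3 (-0.64) lower among targets. None of these 4 calls was made by edgeR without LATS1/2-KO replicate 2 or 3 or without LATS1/2-Sox9-KO replicate 1 or 2, while 2 were made without control replicate 2 or LATS1/2-Sox9-KO replicate 3. The log2 fold changes kept their direction in all 19 alternatives, from 0.52 to 0.73 for Ywhag, -1.18 to -0.65 for Nf2, 0.71 to 1.04 for Smad3 and -0.74 to -0.57 for Rbms3. At an unadjusted p of 0.05, 6 list genes were higher and 7 lower, and DESeq2 called 8. The 20 other target genes did not pass the test, Ankrd1 (0.09 ± 0.22) and Ccn2 (-0.77 ± 0.32) among them. In LATS1/2-Sox9-KO against control, 15 of 21 target genes rose and 5 fell, 1 of 20 nuclear partners rose and 15 fell, and 12 of 23 genes of retention and turnover rose and 5 fell, where 29.3% of all genes were called higher and 28.7% lower.

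For each member, the genes with the most similar pattern were taken from 11800 tested genes by Pearson correlation of log2 normalized counts over the 9 libraries. The libraries fall into groups that differ widely, so r mostly reflects the group means and is given as a description. Among the genes most like Vgll3 were Cfl1 (r = 0.999) and Ankrd1 (0.997). Among those most like Tead2 were Slc46a3 (0.994) and the progesterone receptor gene Pgr (0.994), which averaged 22685 ± 6622 (SD, n = 3) normalized counts in control, 379 ± 269 in LATS1/2-KO and 34.7 ± 16.3 in LATS1/2-Sox9-KO. Like Tead2, Pgr stepped down in both deletion groups. Wwtr1 was most like Notch4 (0.969), Itgb8 (0.958) and Col11a1 (0.952), of which the integrin gene Itgb8 averaged 1760 ± 537, 3570 ± 200 and 1068 ± 125 in the same order of groups. Yap1 was closest to Plekhg2, Aebp2 and Pik3r2 (0.989 to 0.992), Tead3 to Fto, Sowahc and Fam53b (0.996 to 0.997), and Tead4 to Timm10, Mphosph10 and Llph (0.997 each). Tead1 was closest to Cdv3-ps, Esf1 and Dscc1 (0.989 to 0.992), where Cdv3-ps is a pseudogene whose counts may include reads of its parent gene. Vgll1 was closest to Dnaja1, C1qtnf1 and Arhgap5 (0.993 to 0.994). Vgll4, with the flattest profile, had the lowest likeness, to Zbtb2 (0.949), Ranbp6 (0.927) and Mybpc2 (0.925).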

How the data were processed

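Reads had been mapped by the authors with STAR 2.6.0c (mm10), and properly paired, uniquely mapped fragments were assigned to Ensembl genes by featureCounts of Subread 1.6.2, without mitochondrial genes. The deposited values are raw counts per gene and library, without pooling. Groups and replicate numbers came from the labels. Of 55450 gene IDs, 55190 matched GENCODE M21 (GRCm38), which gave symbols, coordinates and exon lengths. Counts were tested in R 4.3.3 with edgeR 4.0.16 (TMM factors, filterByExpr, glmQLFit and glmQLFTest on the means of 3 groups over all 9 libraries), with Benjamini-Hochberg adjustment over 19357 genes. Calls required an adjusted p of at most 0.05, and a stricter rule added an absolute log2 fold change above 1. Where every library of a group held 3 counts or fewer, the fold is a lower bound set against that floor. Levels were compared between genes as normalized counts per kilobase of the union of annotated exons. An exact permutation test of 3 against 3 libraries cannot go below a two-sided p of 0.1, so shares and ratios are given by their values alone. The depth makes counting error small for most members, and the 3 libraries per group limit the precision. Libraries of a group differed by more than sampling noise (chi-square per gene from 17.9 to 142.1). The code was tested on simulated counts.

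The 9 members, the lists, the tests and the alternatives were chosen with earlier results of these data known. Named were all members, the targeted genes, up to 4 genes per pathway list with the largest change among those called in LATS1/2-KO against control with a mean of 100 or more normalized counts, the 3 genes most like each member (some are not reported here), and the most abundant marker of each cell type list. Other genes were named after their values were seen. The alternatives were DESeq2 1.42.0, RLE or upper-quartile factors, library size alone, TMM without the 100 most counted genes, no filter on low counts, a minimum of 10 counts in each library, a fit without the third group, a replicate block, leaving out each library, an adjustment for GC content, glmTreat, and the longest transcript as length. Promoter windows came from RefSeq (GRCm38.p6). Protein sequences were not used here.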

Additional observations from a re-analysis of the deposited data

How the results depend on the processing

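Of 169 log2 fold changes of members under the alternatives in each comparison, 164 in LATS1/2-KO against control, 150 in LATS1/2-Sox9-KO against LATS1/2-KO and 166 in LATS1/2-Sox9-KO against control kept their direction and side of the threshold. Signs turned for values near 0. Vgll4 in LATS1/2-KO against control was at -0.00392 without control replicate 3 and at up to 0.193 without another library, and in LATS1/2-Sox9-KO against control at 0.135 with the GC adjustment. In LATS1/2-Sox9-KO against LATS1/2-KO, Yap1 ranged from -0.194 to 0.0432 and Tead1 from -0.192 to 0.189 as libraries were left out, both turning without LATS1/2-KO replicate 3. Tead3 turned with upper-quartile factors (-0.0223), library size alone (-0.0783), the GC adjustment (-0.0609) and without LATS1/2-KO replicate 1 (-0.00885, and up to 0.116 without others). The counts of members and of list genes called in both comparisons with control stayed within 1.5 times. For LATS1/2-Sox9-KO against LATS1/2-KO they did not. The 3 members called became 0 to 3 when a library was left out, and the 2 members past 2-fold became 0 to 2, 1 with at least 10 counts in every library (Vgll1 then drops out of the test) and 0 with glmTreat. The 1249 genes called became 249 to 2044 when a library was left out and 2609 with DESeq2. The 4 list genes called became 0 to 6 when a library was left out, 8 with DESeq2, 7 with library size alone and 2 with the groups fitted alone. The share of calls that were higher in that comparison was 48.4%, and 39.4% with upper-quartile factors and 30.4% with library size alone, where the median of all genes moved from -0.02 to -0.12. With the longest transcript as length, Tead3 made up 21.8%, 17% and 19.4% of the TEAD level in control, LATS1/2-KO and LATS1/2-Sox9-KO, and Tead4 1.92% in control and 28.3% in LATS1/2-Sox9-KO. The causes of these shifts were not tested.

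Replicate numbers are shared between groups in the labels, which do not say whether they pair the libraries. Deviations of same-numbered libraries correlated from -0.113 to 0.33. Between the deletion groups, same-numbered pairs were at 0.15, 0.33 and -0.0496, and differently numbered pairs ran from -0.283 to 0.0566. The main fit took the libraries as unpaired, and whether the numbers mark a shared batch was not tested. With the replicate block, LATS1/2-Sox9-KO against LATS1/2-KO called 1 member and 1 past 2-fold, with Wwtr1 at an adjusted p of 0.0521 and Vgll1 at 0.0732 (edgeR). Depth limits Vgll1 and Vgll3 in control, where counts ran from 0 to 9.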
